A study of Homo sapiens with 28 samples.

Results

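Amino acid transporters of the plasma membrane were followed through residual HCT116 xenograft tumors and the cell cultures explanted from such tumors. The 10 genes (SLC1A5, SLC1A4, SLC38A1, SLC38A2, SLC7A5, SLC3A2, SLC7A11, SLC1A3, SLC7A1 and SLC6A15) were taken by symbol from the 58278 genes counted. HCT116 is a human colorectal carcinoma cell line, and the injected cells carried Luciferase-GFP. They grew subcutaneously in male NOD SCID mice, which lack functional T and B lymphocytes and were 5 weeks of age at injection. Dosing began 8 days after injection, and every mouse received daily oral doses for 23 days. Control mice (n = 3 tumors) received vehicle. Palbociclib, an inhibitor of the cell cycle kinases CDK4 and CDK6, was given at 100 mg/kg/day (n = 5). Telaglenestat, spelled as in the sample labels and known as Telaglenastat, inhibits glutaminase and was given at 150 mg/kg/day (n = 4), and the group Palbociclib+Telaglenestat received both doses (n = 4). Cultures came from tumors of the same 4 treatments, 3 per treatment, and were grown as monolayers without drugs in medium with 2.5 mM L-glutamine, so a culture's group names the past treatment of its tumor. Whether a sequenced tumor and a culture came from the same mouse is not given in the labels.

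Cancer cells import glutamine both as a nitrogen and carbon source and as a currency that exchangers trade for other amino acids. Sodium-coupled carriers of the SLC38 family bring about net glutamine uptake, exchangers such as SLC1A5 swap neutral amino acids, and the SLC7 light chains need the SLC3A2 heavy chain to reach the membrane. Glutaminase turns glutamine into glutamate, which SLC7A11 in turn releases in exchange for cystine, the precursor of the cysteine in glutathione. When amino acids run short, the transcription factor ATF4 is translated and raises many transporter genes through amino acid response elements.

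Each member is a protein-coding gene with a known cargo, given here with its place in GENCODE 29 (GRCh38). SLC1A5 (ENSG00000105281.12, chr19:46774883-46788594, minus strand) encodes ASCT2, an exchanger of glutamine, alanine, serine and other small neutral amino acids. SLC1A4 (ENSG00000115902.10, chr2:64988477-65023865, plus strand) encodes ASCT1, a related exchanger of alanine, serine and cysteine. The net glutamine importers SNAT1 and SNAT2 are encoded by neighbors on chromosome 12, SLC38A1 (ENSG00000111371.15, chr12:46183063-46270017, minus strand) and SLC38A2 (ENSG00000134294.13, chr12:46358189-46372867, minus strand). SLC7A5 (ENSG00000103257.8, chr16:87830023-87869488, minus strand) encodes LAT1, which imports leucine and other large neutral amino acids. Its partner SLC3A2 (ENSG00000168003.16, chr11:62856102-62888875, plus strand) encodes the CD98 heavy chain. SLC7A11 (ENSG00000151012.13, chr4:138164097-138242349, minus strand) encodes xCT, the cystine and glutamate exchanger. SLC1A3 (ENSG00000079215.13, chr5:36606355-36688334, plus strand) encodes EAAT1, a glutamate and aspartate importer. SLC7A1 (ENSG00000139514.12, chr13:29509410-29595688, minus strand) encodes CAT1, which carries arginine and lysine. SLC6A15 (ENSG00000072041.16, chr12:84859488-84913615, minus strand) encodes B0AT2, a sodium-coupled importer of branched-chain amino acids and proline that is best known from brain.

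The letters TGATGNAA, the core of the amino acid response element bound by ATF4 with C/EBP partners, were searched on both strands of RefSeq promoter windows (GRCh38.p14, 250 bases before to 50 after an annotated start). A gene with alternative starts has several windows. A window was present for 8 of the 10 members, all but SLC7A11 and SLC6A15. The core was found in windows of 6 of these 8 genes and in 6 of their 16 windows, where 4.46% of 27305 genes and 3.62% of 35116 windows hold it. The matches are printed with up to 11 flanking bases on each side, because these 6 members with different cargoes share the core. Capitals mark the core, and each match is read 5′ to 3′ on the strand that holds it.
SLC1A5, chr19:46784893-46784922, minus strand: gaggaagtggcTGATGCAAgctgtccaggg
SLC1A4, chr2:64989381-64989410, minus strand: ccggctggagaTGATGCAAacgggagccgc
SLC1A3, chr5:36596357-36596386, plus strand: caggaaatgacTGATGCAAagcagggttaa
SLC3A2, chr11:62881725-62881748, minus strand: ggagcTGATGTAAggagtcctgca
SLC7A1, chr13:29595663-29595692, minus strand: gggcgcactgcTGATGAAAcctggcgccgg
SLC38A1, chr12:46266502-46266531, minus strand: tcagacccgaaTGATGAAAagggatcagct
SLC1A5, SLC1A4 and SLC1A3, from the same gene family, share the core TGATGCAA, while SLC7A1 and SLC38A1 share TGATGAAA. Only the SLC7A1 match lies at the start of the gene as GENCODE 29 places it. The SLC1A3 match lies upstream of that gene and the other 4 lie inside their genes, each in a window at another RefSeq start. The windows of SLC7A5 and SLC38A2 held no match. A match describes these letters only and is not evidence of binding.

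Gene counts of 28 libraries were available, with 6273834 to 10617936 counts per tumor and 7198540 to 13815675 per culture. Depth was 6463239 to 6853368 counts in Telaglenestat and 6741257 to 7218778 in Palbociclib+Telaglenestat tumors. All of these lay under the Control tumors, at 7539298 to 8849414, so depth and treatment cannot be told apart between these groups. Levels are counts per 1000000 counts (CPM) on library sizes scaled by the trimmed mean of M-values (TMM), and they are divided by exon length only where genes are ranked. Changes are log2 fold changes with standard errors (SE) from edgeR's quasi-likelihood test, and a gene was called at a Benjamini-Hochberg adjusted p under 0.05 over all genes tested. Whether the libraries of 2 groups overlap is described for members only. The share of all genes without overlap is not given here, so a lack of overlap does not set a member apart from other genes. Libraries differed in how counts followed the GC content of transcripts. Slopes were fitted after each gene's mean log2 level over all tumors, or over all cultures, was subtracted. A slope is thus relative to the average library of its own system, and tumor and culture slopes have separate zero points. For each SD of GC content the slope averaged 0.251 ± 0.00575 (SD over 3 replicates) for Control, 0.281 ± 0.104 (5) for Palbociclib, −0.333 ± 0.0351 (4) for Telaglenestat and −0.206 ± 0.0557 (4) for Palbociclib+Telaglenestat tumors. A second value is therefore given where it matters, from a fit in which the trend of each library on GC content and gene length was removed. Telaglenestat culture replicate 2 stood apart, with a slope of 0.414 where the other cultures lay between −0.128 and 0.172, and so did Palbociclib tumor replicate 2, with 0.0971 where the other tumors of its group lay between 0.309 and 0.353. Epithelial markers were detected in every group, led by KRT8 or EPCAM, with a summed level of 1600 to 4340 CPM, while CEACAM6 was at 0 throughout. The 16 markers of stroma and blood summed to 58.7 to 221 CPM in tumors and 4.36 to 15.1 CPM in cultures, led in tumors by COL1A1, with CDH5 at 0 in every group and LUM at 0 in every tumor. Most of a mouse host's own RNA could enter a human count table only through reads that align to the human genome, and in bulk RNA fewer cells of a type and less RNA per cell cannot be told apart.

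SLC38A2 was the member with the highest level per length in every group of both systems, and SLC38A1, the other glutamine importer of the SLC38 family, came next in Control tumors and Control cultures. In Control tumors the mean level was 136 CPM per kb for SLC38A2, 35.1 for SLC38A1, 31.9 for SLC7A5, 27.1 for SLC1A5, 21.9 for SLC3A2, 12.4 for SLC7A1, 8.70 for SLC1A3, 3.62 for SLC7A11 and 1.12 for SLC1A4. The ranges of the 3 replicates of neighbors in this order did not overlap. In Control cultures the order was SLC38A2 (254 CPM per kb), SLC38A1 (68.0), SLC7A5 (59.5), SLC3A2 (45.7), SLC1A5 (40.8), SLC7A11 (26.0), SLC7A1 (20.9), SLC1A3 (13.6) and SLC1A4 (2.24). There, the ranges of neighbors from SLC38A1 down to SLC7A1 overlapped, so those ranks are not separated by the replicates. SLC7A11 held rank 8 in Control tumors and rank 6 in Control cultures. SLC6A15 had 5 reads in 3 of the 28 libraries and at most 2 in any, all under the floor of 3 counts, which corresponds to 0.217 to 0.478 CPM depending on depth. It did not pass the filter on low counts, so tests cover 9 of the 10 members.

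**Figure D1:**
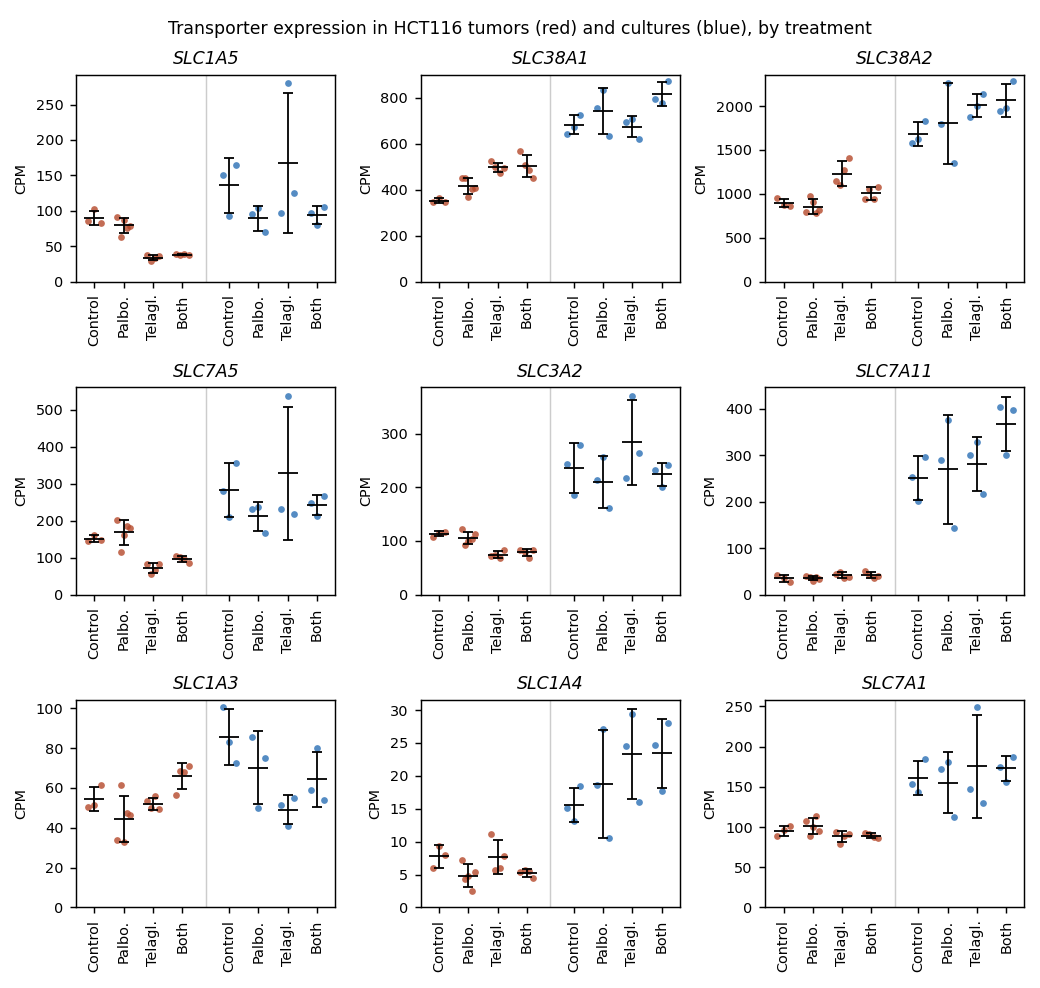
Level of each of the 9 tested members in CPM (vertical axis, linear from 0), by treatment group, in tumors (red) and cultures (blue); each point is a library and black bars are the mean ± SD. SLC7A11 lies between 27.2 and 50.4 CPM in all 16 tumors and between 144 and 404 CPM in all 12 cultures, while SLC1A5 is lowest in the tumors of the 2 groups that received Telaglenestat.

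Control tumors were compared with Control cultures to ask how the transporters differ between growth in a mouse and growth in a dish. All 9 tested members were lower in tumors, and 8 of them were called, all lower, against a background of 45.9% of 15466 genes called, 22.8% lower and 23.1% higher. The median log2 fold change was −0.90 over the members and 0.07 over all genes. With GC content and length removed, 9 of 9 were called, again lower (40.9% of all genes called, 25.3% lower), with a median of −1.12. DESeq2 also called 9 lower, where it called 7240 genes in either direction.

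The cystine exchanger gene differed most. SLC7A11 had 41.3, 36.3 and 27.2 CPM in the 3 Control tumors and 253, 201 and 297 CPM in the 3 Control cultures. The groups did not overlap, and the lowest culture lay well above the highest tumor. The level was 7.16-fold lower in tumors, a log2 fold change of −2.84 (SE 0.25, edgeR adjusted p = 6.7e-10), and −2.65 with the trends removed. Its range over all 16 tumors, 27.2 to 50.4 CPM, also stayed under that over all 12 cultures, 144 to 404 CPM, whatever the treatment. SLC7A11-AS1 overlaps SLC7A11 on the other strand, as AC008622.2 does SLC1A5 and AC126696.2 does SLC7A5; the strand setting of the counting is not given in the sources used here, and SLC7A5 may also share reads with its pseudogenes SLC7A5P1 and SLC7A5P2.

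SLC3A2, the heavy chain that SLC7A11 and SLC7A5 both need, had 108, 115 and 117 CPM in Control tumors and 244, 186 and 279 CPM in Control cultures. It was lower in tumors, with a log2 fold change of −1.06 (SE 0.16, edgeR adjusted p = 8.6e-06). The ranges over all tumors (68.1 to 122 CPM) and all cultures (161 to 371 CPM) did not overlap. SLC7A5, the LAT1 light chain, had 145, 161 and 148 CPM in Control tumors against 281, 210 and 356 CPM in Control cultures, with no overlap and a log2 fold change of −0.90 (SE 0.25, edgeR adjusted p = 0.0041). The GC-rich pair moved further apart with the trends removed, to −1.65 for SLC3A2 and −1.67 for SLC7A5.

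The glutamine importers were also lower in tumors. SLC38A1 had 345, 365 and 346 CPM in Control tumors and 644, 674 and 726 CPM in Control cultures, a log2 fold change of −0.95 (SE 0.10, edgeR adjusted p = 1.7e-08). SLC38A2 had 953, 875 and 864 CPM against 1578, 1628 and 1831 CPM, a log2 fold change of −0.90 (SE 0.13, edgeR adjusted p = 3.3e-06). Neither gene's groups overlapped, and for SLC38A1 the 16 tumors (345 to 568 CPM) and 12 cultures (621 to 873 CPM) were separate as well. SLC1A5 had 86.1, 102 and 83.1 CPM in Control tumors and 151, 92.3 and 165 CPM in Control cultures, so 1 culture lay within the range of the tumors. Its log2 fold change of −0.59 (SE 0.25, edgeR adjusted p = 0.053) missed the threshold; it was −1.35 (adjusted p = 6.2e-09) with the trends removed, −0.55 (adjusted p = 0.042) with DESeq2 and −0.59 (adjusted p = 0.0046) without Telaglenestat culture replicate 2, a library that enters this fit only through the shared estimate of spread.

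SLC7A1, the arginine carrier, fell from 144 to 185 CPM in Control cultures to 88.4 to 101 CPM in Control tumors, a log2 fold change of −0.76 (SE 0.17, edgeR adjusted p = 7.3e-04). SLC1A3, the glutamate importer, had 50.7, 51.5 and 61.3 CPM in tumors and 101, 83.2 and 72.7 CPM in cultures, a log2 fold change of −0.65 (SE 0.20, edgeR adjusted p = 0.0080). SLC1A4, the weakly expressed ASCT1 gene, had 5.97 to 9.38 CPM against 13.2 to 18.4 CPM, a log2 fold change of −1.0 (SE 0.32, edgeR adjusted p = 0.012). No overlap was seen for SLC7A1, SLC1A3 or SLC1A4, without a share of all genes so separated to set beside this. Leaving out a library ended the call of SLC1A4 without Control tumor replicate 1 (adjusted p = 0.065) or Control culture replicate 3 (0.052), and that of SLC1A3 without Control culture replicate 1 (0.056); the other 6 called members kept theirs in each of the 28 fits that left out a library.

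**Figure D2:**
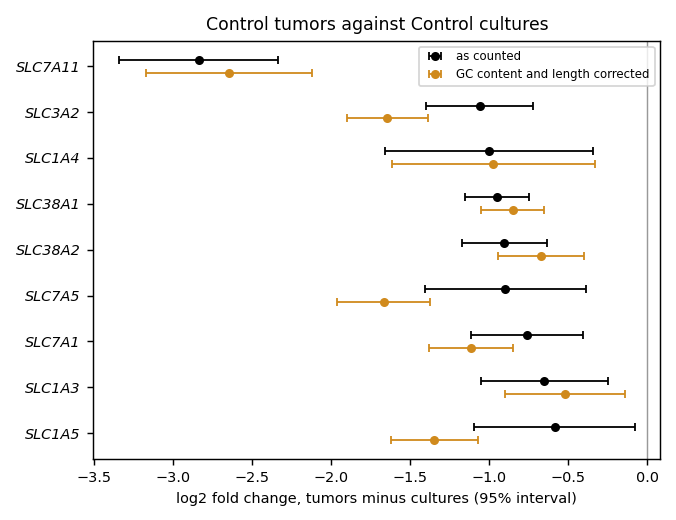
Log2 fold change of each tested member, Control tumors minus Control cultures (horizontal axis), with 95% intervals, as counted (black) and with GC content and length removed (orange). All points lie left of 0, and SLC7A11 lies farthest left at −2.84.

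Other genes of amino acid supply differed in both directions. Over all genes 22.8% were called lower and 23.1% higher as counted, and 25.3% and 15.7% with the trends removed. Of the 13 tested among 22 other plasma membrane amino acid transporters, 3 were lower and 2 higher in Control tumors, with a median log2 fold change of 0.21. SLC1A1, the glutamate and cysteine importer EAAT3, was higher by 1.52 (SE 0.19, edgeR adjusted p = 3.3e-07), whereas SLC7A2, a carrier of arginine and lysine, differed by −1.23 (SE 0.15, 3.6e-07) and SLC7A6, a light chain of SLC3A2, by −1.11 (SE 0.13, 6.6e-08). Among 12 tested lysosomal and mitochondrial carriers 5 were lower and 2 higher. Of 15 tested genes of the amino acid response, that is ATF4 and its textbook targets, 7 were lower and 1 higher (9 and 1 with the trends removed), with a median of −0.70. CHAC1, which degrades glutathione, differed by −3.54 (SE 0.65, edgeR adjusted p = 6.2e-05), PSAT1, of serine synthesis, by −2.69 (SE 0.17, 2.0e-12) and ASNS, asparagine synthetase, by −2.46 (SE 0.30, 1.9e-07). The stroma and blood markers moved the other way, with 7 of 8 tested higher in Control tumors, and so did 6 of 9 tested epithelial markers; their part in the transporters' difference was not tested. Tumor or culture cannot be told apart from any difference in handling between the 2 kinds of material.

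The comparison of Palbociclib tumors with Control tumors asked whether the transporters of tumors that grew on under the kinase inhibitor differed. None of the 9 members was called, against 6.16% of 14848 genes. An unadjusted edgeR p under 0.05 was found for 2 members and for 2701 of the 14848 genes. DESeq2 called 1173 genes, among them 1 member. That member was SLC38A1, with 449, 450, 369, 404 and 407 CPM in the Palbociclib tumors against 345, 365 and 346 CPM in Control tumors. The groups did not overlap. Its log2 fold change was 0.25 (SE 0.07, edgeR adjusted p = 0.055), with an adjusted p of 0.0050 in DESeq2. With the trends removed it was the 1 member called (7.62% of all genes), at 0.30 (adjusted p = 0.0087). SLC1A4 had the most negative value, −0.68 (95% interval −1.26 to −0.10, edgeR adjusted p = 0.18). Without Palbociclib tumor replicate 2, SLC1A3 was called at −0.44 (edgeR adjusted p = 0.039), where all libraries gave −0.30 (adjusted p = 0.32). SLC7A11 differed by 0.02 (95% interval −0.27 to 0.31).

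Telaglenestat tumors were compared with Control tumors to see how blocking the use of glutamine was accompanied by changes in its carriers. As counted, 6 of 9 members were called, 4 lower and 2 higher, where 51.1% of all genes were called (28.5% lower and 22.6% higher). SLC1A5 had 37.7, 29.03, 33.2 and 35.7 CPM in the Telaglenestat tumors and 86.1, 102 and 83.1 CPM in Control tumors, with no overlap, a log2 fold change of −1.52 (SE 0.11, edgeR adjusted p = 6.3e-09). SLC7A5 had 81.9, 54.4, 65.5 and 82.1 CPM against 145, 161 and 148 CPM, a log2 fold change of −1.20 (SE 0.15, adjusted p = 1.9e-06). SLC3A2 had 72.5, 73.0, 68.1 and 82.9 CPM against 108, 115 and 117 CPM, a log2 fold change of −0.72 (SE 0.09, adjusted p = 2.5e-06). All Telaglenestat tumors lay under all Control tumors for SLC1A5, SLC7A5 and SLC3A2, without a share of all genes so separated to set beside this. SLC7A1 overlapped between the groups, at 79.1 to 93.7 CPM against 88.4 to 101 CPM, with a log2 fold change of −0.21 (SE 0.08, adjusted p = 0.039). This call was lost without Control tumor replicate 2 (adjusted p = 0.084) or 3 (0.17) and without Telaglenestat tumor replicate 2 (0.12) or 3 (0.072), and DESeq2 gave an adjusted p of 0.11.

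The net glutamine importers were the 2 members called higher. SLC38A1 had 523, 498, 474 and 495 CPM in Telaglenestat tumors against 345, 365 and 346 CPM, a log2 fold change of 0.39 (SE 0.08, edgeR adjusted p = 3.2e-04). SLC38A2 had 1145, 1100, 1268 and 1409 CPM against 953, 875 and 864 CPM, a log2 fold change of 0.35 (SE 0.09, adjusted p = 0.0047). Neither gene's groups overlapped. SLC7A11 had 44.0, 48.6, 35.2 and 38.4 CPM against 41.3, 36.3 and 27.2 CPM, overlapping, with a log2 fold change of 0.14 (95% interval −0.17 to 0.45). SLC1A3 (−0.17) and SLC1A4 (−0.12) were not called either.

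These directions followed the base composition of the transcripts. The members called lower had the highest GC contents in their longest transcripts, 61.3% for SLC1A5, 61.1% for SLC7A5, 57.4% for SLC3A2 and 52.7% for SLC7A1, while SLC38A1 (41.3%) and SLC38A2 (38.1%) were called higher. The same order was seen over all genes, whose median log2 fold change was −1.39 among the 1284 genes of 60 to 64% GC and 0.39 among the 1893 genes of 36 to 40% GC. SLC1A5, at −1.52, and SLC7A5, at −1.20, thus lay on either side of the median of genes of their composition. With the trends removed none of the 9 members was called, where 15.6% of all genes were. An unadjusted edgeR p under 0.05 was found for 4 members and for 4125 of 14848 genes. SLC1A5 was then at −0.26 (edgeR adjusted p = 0.090), SLC7A5 at 0.04 (0.87), SLC3A2 at 0.19 (0.16), SLC7A1 at 0.21 (0.065), SLC38A1 at 0.13 (0.27) and SLC38A2 at 0.02 (0.92). The treatment and the composition trend of these libraries cannot be told apart, since all 4 Telaglenestat tumors had slopes from −0.380 to −0.295 and all 3 Control tumors from 0.245 to 0.255.

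**Figure D3:**
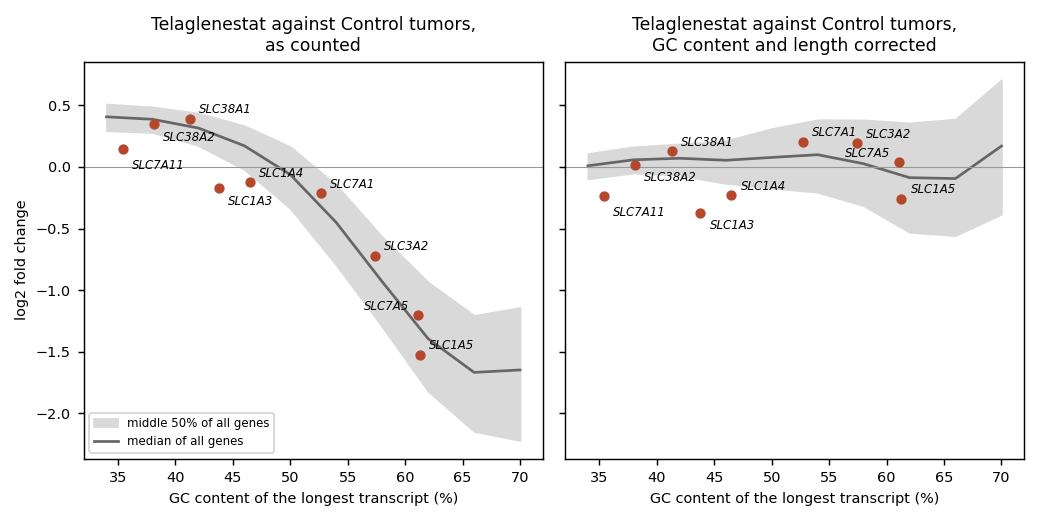
Log2 fold change in Telaglenestat against Control tumors (vertical axis) over the GC content of the longest transcript in percent (horizontal axis), as counted (left) and with GC content and length removed (right); red points are the 9 tested members, the line is the median of all genes in bins of 4 points and the gray band their middle 50%. On the left, the called members run along the falling line from SLC38A2 at 0.35 to SLC1A5 at −1.52, and on the right all 9 tested members lie between −0.38 and 0.21.

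Other genes of amino acid supply were counted in the same comparison. Over all genes 28.5% were called lower and 22.6% higher as counted, and 7.46% and 8.17% with the trends removed. In Telaglenestat tumors 6 of 13 other plasma membrane transporters were lower and 2 higher, and 0 in either direction with the trends removed (at a median of −0.20). SLC6A9, a glycine carrier, changed by −1.63 (SE 0.50, edgeR adjusted p = 0.010), SLC43A2, a carrier of large neutral amino acids, by −1.40 (SE 0.23, 4.6e-05) and SLC38A5, a glutamine carrier of the SLC38 family, by −1.06 (SE 0.15, 8.1e-06). Of 12 lysosomal and mitochondrial carriers 5 were lower and 2 higher, led by the mitochondrial glutamate carrier SLC25A22 at −1.78 (SE 0.28, edgeR adjusted p = 2.6e-05), and with the trends removed 0 were lower and 1 higher. The amino acid response genes had 8 of 15 lower and 1 higher, and 0 lower and 4 higher with the trends removed. TRIB3, an ATF4 target that restrains AKT, went from −0.68 (SE 0.19, edgeR adjusted p = 0.0049) as counted to 0.55 (adjusted p = 0.019) with the trends removed. CHAC1 fell further as counted, at −1.91 (SE 0.78, edgeR adjusted p = 0.046). It stayed negative and was not called with the trends removed, at −0.59 (adjusted p = 0.69). Stroma and blood markers were lower in 6 of 7 tested genes, 3 of 7 with the trends removed, as their summed level was 58.7 to 72.5 CPM in Telaglenestat tumors and 175 to 221 CPM in Control tumors. Of 9 tested epithelial markers 5 were lower and 2 higher (median −1.21), and 4 were lower and 0 higher with the trends removed (median −0.51), with a summed level of 1933 to 2091 CPM against 2956 to 3507 CPM. The part of either list in the members' values was not tested.

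In Palbociclib+Telaglenestat tumors 4 of 9 members were called against Control tumors (44.5% of all genes), 3 lower (26.9%) and 1 higher (17.6%). SLC1A5 had 38.6, 37.8, 38.7 and 38.1 CPM, under all Control tumors, a log2 fold change of −1.34 (SE 0.11, edgeR adjusted p = 3.9e-08). SLC7A5 had 103, 102, 95.1 and 84.0 CPM, also under all Control tumors, a log2 fold change of −0.76 (SE 0.15, adjusted p = 3.3e-04). SLC3A2 had 83.6, 78.6, 68.8 and 83.8 CPM, a log2 fold change of −0.63 (SE 0.09, adjusted p = 1.5e-05), again without overlap. SLC38A1 was higher, at 568, 508, 486 and 452 CPM, a log2 fold change of 0.41 (SE 0.08, adjusted p = 2.2e-04). With the trends removed 2 members were called (27.0% of all genes): SLC1A5 at −0.29 (95% interval −0.50 to −0.09, edgeR adjusted p = 0.032) and SLC38A1 at 0.31 (0.16 to 0.46, adjusted p = 0.0034). SLC38A1 was thus the member whose rise was called as counted, with the trends removed and with DESeq2, while SLC7A5 turned to 0.30 (adjusted p = 0.070) and SLC3A2 to 0.16 (0.21). SLC7A11 had 50.4, 41.4, 34.7 and 40.6 CPM and was not called, at 0.15 (95% interval −0.16 to 0.46). SLC1A4 lay at 4.42 to 5.70 CPM, under all Control tumors, without passing the test (−0.66, SE 0.30, adjusted p = 0.076). Of the stroma and blood markers 2 of 7 were lower, 0 of 7 with the trends removed, and of the epithelial markers 3 of 9 were lower and 2 higher, against 2 lower and 3 higher with the trends removed; their part in the members' values was not tested.

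**Figure D4:**
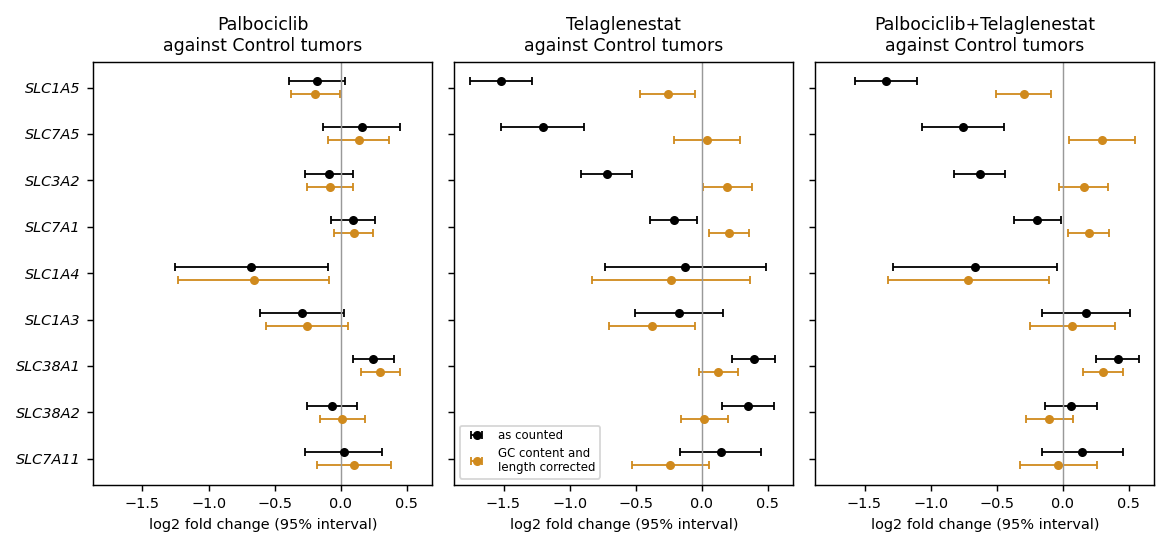
Log2 fold change of each tested member against Control tumors (horizontal axes) with 95% intervals, for Palbociclib, Telaglenestat and Palbociclib+Telaglenestat tumors, as counted (black) and with GC content and length removed (orange); genes run from the highest GC content of the transcript at the top to the lowest. SLC1A5 stands at −1.52 and −1.34 as counted in the groups given Telaglenestat and at −0.26 and −0.29 with the trends removed.

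The combined treatment was also set against each single drug; these comparisons share their Palbociclib+Telaglenestat tumors with the one above. Against Palbociclib tumors 6 of 9 members were called (47.6% of all genes), 4 lower (27.5%) and 2 higher (20.1%). SLC1A5 differed by −1.16 (SE 0.10, edgeR adjusted p = 5.1e-08), from 63.5 to 91.6 CPM in the 5 Palbociclib tumors to 37.8 to 38.7 CPM. SLC7A5 differed by −0.92 (SE 0.13), SLC3A2 by −0.54 (SE 0.08) and SLC7A1 by −0.29 (SE 0.07). SLC1A3 was higher by 0.47 (SE 0.14, adjusted p = 0.0092), with 56.3, 68.3, 68.2 and 70.8 CPM against 33.8, 61.5, 32.9, 47.3 and 46.2 CPM; the second Palbociclib tumor lay within the other group's range. SLC38A1 was higher by 0.17 (SE 0.07, adjusted p = 0.046), a call lost in 11 of the 16 fits that left out a library (adjusted p up to 0.16) and kept only without Palbociclib tumor replicate 1 or 2, Telaglenestat tumor replicate 1 or 3 or Palbociclib+Telaglenestat tumor replicate 4. With the trends removed 1 member was called (15.4% of all genes, 6.87% lower and 8.58% higher). It was SLC3A2, in the opposite direction, at 0.24 (edgeR adjusted p = 0.043). SLC1A3 was then at 0.33 (adjusted p = 0.12). Stroma and blood markers had 2 of 7 lower, and 1 lower and 1 higher with the trends removed; epithelial markers had 4 of 9 lower and 2 higher, and 3 lower and 1 higher with the trends removed, and the part of either in these values was not tested.

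Against Telaglenestat tumors 2 of 9 members were called (18.8% of all genes), 1 lower (9.89%) and 1 higher (8.93%). SLC7A5 was higher in the combination by 0.44 (SE 0.15, edgeR adjusted p = 0.037), and SLC38A2, at 941, 1060, 943 and 1079 CPM against 1145, 1100, 1268 and 1409 CPM, differed by −0.28 (SE 0.09, adjusted p = 0.028). Both calls were lost without Telaglenestat tumor replicate 3 and without Palbociclib+Telaglenestat tumor replicates 1 or 3. SLC7A5 was also lost without Telaglenestat tumor replicate 2 (adjusted p = 0.13) or Palbociclib+Telaglenestat tumor replicate 2 (0.082), and SLC38A2 without Telaglenestat tumor replicate 4 (0.12). With the trends removed only SLC1A3 was called (15.4% of all genes, 6.83% lower and 8.61% higher). It was higher by 0.45 (edgeR adjusted p = 0.043). As counted its groups, at 49.6 to 55.8 CPM and 56.3 to 70.8 CPM, did not overlap (0.35, edgeR adjusted p = 0.11). Stroma and blood markers were higher in the combination in 4 of 7 tested genes as counted (median 1.02) and with the trends removed (0.99). Epithelial markers were higher in 5 of 9 in both fits (medians 0.55 and 0.47), and the part of either list in the members' values was not tested. No member was called for a departure from the sum of the separate drug effects on the log2 scale (10 of 14848 genes called, 0.0673%). Both edgeR and DESeq2 called 0 members. DESeq2 called 93 genes and gave no adjusted p for 1 of the 9 members. An unadjusted edgeR p under 0.05 was found for 3 members and for 1424 of the 14848 genes. The value farthest from 0 was that of SLC1A3, at 0.65 (SE 0.21, edgeR adjusted p = 0.35).

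Cultures of treated tumors were compared with Control cultures to see whether differences persisted once cells grew without drugs. No member was called in cultures of Palbociclib tumors (0% of 13985 genes), Telaglenestat tumors (0%) or Palbociclib+Telaglenestat tumors (0.00715%), nor between the combination and Palbociclib (0%) or Telaglenestat (0%). DESeq2 called 0 members in each, and 0, 19, 3, 3 and 141 genes in that order. It gave no adjusted p for 4 of the 9 members in cultures of Telaglenestat tumors, so these could not be called there. An unadjusted edgeR p under 0.05 was found for 0, 1, 1, 0 and 2 members in that order, and for 592, 898, 895, 277 and 1969 of the 13985 genes. SLC1A3 had 51.5, 40.8 and 55.1 CPM in cultures of Telaglenestat tumors and 101, 83.2 and 72.7 CPM in Control cultures. The groups did not overlap, and the log2 fold change was −0.82 (95% interval −1.27 to −0.37), but the adjusted p was 0.71. SLC7A11 had 404, 300 and 397 CPM in cultures of Palbociclib+Telaglenestat tumors against 253, 201 and 297 CPM, separate by a small margin, with a log2 fold change of 0.55 (95% interval −0.05 to 1.15, adjusted p = 0.68).

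In cultures of Telaglenestat tumors the highest values of SLC1A5, SLC7A5 and SLC3A2 came from the same library. SLC1A5 had 96.4, 280 and 124 CPM, SLC7A5 had 232, 536 and 217 CPM, and SLC3A2 had 217, 371 and 263 CPM, with the high value of each in replicate 2, the library whose GC slope stood apart. Their log2 fold changes against Control cultures were 0.29, 0.20 and 0.25 with all libraries and −0.31, −0.34 and 0.01 without that replicate. No member was called in any culture comparison without it.

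The last question was whether a drug's effect differed between tumors and the cultures grown from such tumors. For Palbociclib no member was called (1.39% of 15466 genes), nor for the combination (2.91%), by edgeR or DESeq2. DESeq2 called 479 genes for Palbociclib, with no adjusted p for 1 of the 9 members, and 720 genes for the combination. An unadjusted edgeR p under 0.05 was found for 1 member and 2159 genes for Palbociclib. For the combination it was found for 3 members and 3211 genes. For Telaglenestat 5 of 9 members were called (34.1% of all genes), 3 lower (18.5%) and 2 higher (15.6%). SLC1A5 changed by −1.52 in the fit of tumors and had a value of 0.29 in the separate fit of cultures. The difference between the effects was estimated in the fit of all 28 libraries, at −1.72 (SE 0.34, edgeR adjusted p = 6.7e-04). The difference was −1.32 (SE 0.34, adjusted p = 0.0043) for SLC7A5 and −0.88 (SE 0.23, adjusted p = 0.0042) for SLC3A2. It was 0.52 (SE 0.13, adjusted p = 0.0047) for SLC38A1 and 0.74 (SE 0.27, adjusted p = 0.036) for SLC1A3. Without Telaglenestat culture replicate 2 the differences were −1.12 for SLC1A5, −0.76 for SLC7A5, −0.63 for SLC3A2 and 0.55 for SLC38A1, each still called, and 0.62 for SLC1A3 (adjusted p = 0.12). With GC content and length removed no member was called (8.28% of all genes, 2.37% lower and 5.90% higher). An unadjusted edgeR p under 0.05 was found for 0 members and for 3724 of 15466 genes. The values were −0.21 for SLC1A5, 0.12 for SLC7A5, 0.11 for SLC3A2, 0.20 for SLC38A1 and 0.52 for SLC1A3, where the median over all genes stood at 0.15. In the same comparison 3 of 8 stroma and blood markers and 5 of 9 epithelial markers were lower, 1 of 8 and 2 of 9 with the trends removed; their part in the members' differences was not tested.

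The genes whose log2 levels over the 28 libraries were most like those of 3 members were looked up among 13705 genes, after each system's mean was removed; the libraries share depth and composition trends, so the correlations are descriptions. For SLC1A5 they included AGPAT1 (Pearson's r = 0.972) and GSTP1 (0.970), with transcripts of 54.2% and 62.5% GC. For SLC7A11 they were ASNS (0.821), ARSD (0.812) and FAM167A (0.795). For SLC38A2 they were MTHFD2 (0.854), C4orf32 (0.813) and NFIL3 (0.805).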

How the data were processed

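Whole-transcriptome sequencing of poly(A) RNA was done in 16 tumors and 12 cultures. The authors prepared libraries with a kit that marks the second cDNA strand, obtained single-end reads of 60 bases, used STAR with hg38 and deposited raw counts per gene; CASAVA 1.8 is named in the submitters' processing notes. The strand setting, the annotation release and any removal of mouse reads are not given in the sources used here. Per the file headers, a row pairs an Ensembl ID with a symbol; 57940 of 58278 IDs matched GENCODE 29, which gave GC content, length and position.

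Groups came from the sample titles. Counts were tested with edgeR 4.0.16 (R 4.3.3; filterByExpr with a minimum count of 10, TMM, quasi-likelihood test, Benjamini-Hochberg over all genes tested), in all tumors (14848 genes), all cultures (13985) or all 28 libraries (15466, for comparisons across systems). Intervals are 95%. DESeq2 1.42.0, which the study used, was an alternative. For the correction, a spline (4 degrees of freedom each) of every library's deviation on GC content and log length entered as an offset; 99.6% of tested genes had both values. Scripts were tested on simulated data. Replicates are separate tumors or cultures by their labels. The 37 replicate pairs within groups differed by 4.02 to 46.4 times the counting noise (chi-square per degree of freedom). No library was therefore counted as a copy of another of its group, and pairs across groups were not checked in this way. Depth was 6273834 to 13815675 counts per library, which limits precision most for SLC1A4 and SLC6A15. Limits from counts cover counting error only.

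The named genes are the 10 members, the genes most like 3 of them, and for a main comparison up to 3 genes of each other list with the largest change among those called; some genes that these rules or an overlap would name are not reported here. The members and lists were chosen with earlier results of these data known. Alternatives were DESeq2, its size factors within edgeR, filters on low counts, a replicate block, the correction, other sets of libraries in the fit, other scalings of CPM and leaving out each library.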

Additional observations from a re-analysis of the deposited data

Results flagged for a closer look

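The test of the difference between effects picked out 5 results, all for Telaglenestat in tumors against cultures. The difference in log2 fold change was −1.72 for SLC1A5 (edgeR adjusted p = 6.7e-04), −1.32 for SLC7A5 (0.0043), −0.88 for SLC3A2 (0.0042), 0.52 for SLC38A1 (0.0047) and 0.74 for SLC1A3 (0.036). With GC content and length removed they were −0.21, 0.12, 0.11, 0.20 and 0.52, and none was called. Among 27 sets of values, 1 for each tested member in each tumor group of 4 or 5, none had a library far from the others by Dixon's criterion.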

How the results depend on the processing

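Removing the trends on GC content and length moved the most results. The number of members called went from 6 to 0 for Telaglenestat tumors, from 4 to 2 for Palbociclib+Telaglenestat tumors, from 6 to 1 and from 2 to 1 for the combination against Palbociclib and Telaglenestat tumors, from 0 to 1 for Palbociclib tumors and from 5 to 0 for the Telaglenestat effect in tumors against cultures. Called values that changed sign were those of SLC7A5 (0.0396), SLC3A2 (0.19) and SLC7A1 (0.21) in Telaglenestat tumors, SLC7A5 (0.30) and SLC3A2 (0.16) in the combination, SLC7A5 (0.17), SLC3A2 (0.24) and SLC7A1 (0.10) in the combination against Palbociclib, and SLC7A5 (0.12) and SLC3A2 (0.11) in the effect of Telaglenestat across systems. The cause was not tested. The trend of all genes was shifted to a median of 0.15 in that last comparison and of 0.13 in the same comparison for the combination.

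The replicate numbers did not pair the samples: deviations of same-numbered samples had a mean correlation of 0.000602 in tumors (0 of 21 pairs over 0.1) and −0.0427 in cultures (2 of 18). With the number as a replicate block, the count for Palbociclib tumors went from 0 to 1 (SLC38A1, edgeR adjusted p = 0.047) and SLC1A3 lost its call in the Telaglenestat effect across systems (0.068); no other call changed. The block together with the correction gave 0, 1, 0, 0, 1 and 0 members in the order of the counts above. It gave values of opposite sign for SLC7A5 (0.0245), SLC3A2 (0.18), SLC7A1 (0.20) and SLC38A2 (−0.0140) in Telaglenestat tumors, SLC7A5 (0.29) and SLC3A2 (0.14) in the combination, SLC7A5 (0.16), SLC3A2 (0.23) and SLC7A1 (0.0748) against Palbociclib, and SLC7A5 (0.12) and SLC3A2 (0.10) across systems.

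Of the other settings, DESeq2, its size factors within edgeR and a minimum of 10 counts in every library each gave 1 member (SLC38A1) for Palbociclib tumors in place of 0. A fit of all 28 libraries gave 0 in place of 2 for the combination against Telaglenestat tumors. It also ended the calls of SLC7A1 in Telaglenestat tumors (edgeR adjusted p = 0.61) and in the combination against Palbociclib tumors (0.32). DESeq2's size factors within edgeR ended the former call as well (0.097). With only the 2 groups compared, the combination gained SLC1A4 against Control (0.042) and SLC1A3 against Telaglenestat tumors (0.013). It lost SLC38A1 against Palbociclib tumors (0.065). Without a filter on low counts 1 member was called, in place of 0, for the departure from the sum of both drugs (SLC1A3), for cultures of Palbociclib (SLC1A5), Telaglenestat (SLC1A3) and Palbociclib+Telaglenestat tumors (SLC7A11) and for the last against cultures of Telaglenestat tumors (SLC1A5), and 4 in place of 0 for the combination's effect across systems. Calls were also gained by SLC1A5 in Control tumors against Control cultures (edgeR adjusted p = 0.0031) and by SLC1A3 in the combination against Telaglenestat tumors (0.014). Calls were lost by SLC7A1 in Telaglenestat tumors (0.28) and by SLC38A1 in the Telaglenestat effect across systems (0.12). The share of all genes called without the filter is not given here.

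Leaving out each library in turn gave 0 to 1 members for Palbociclib tumors, 5 to 6 for Telaglenestat tumors, 4 to 5 for the combination, 5 to 6 and 0 to 3 for the combination against Palbociclib and Telaglenestat, 7 to 9 for Control tumors against Control cultures, 4 to 5 for the Telaglenestat effect across systems and 0 in the other comparisons. The count of 1 for Palbociclib tumors came without Palbociclib tumor replicate 2 (SLC1A3) or 3, or Palbociclib+Telaglenestat tumor replicate 1 or 4 (SLC38A1). SLC1A3 in the Telaglenestat effect across systems lost its call in 7 of 28 fits (adjusted p up to 0.12), without Control tumor replicate 1 or 2, Telaglenestat tumor replicate 1 or 3, Control culture replicate 1 or 2, or Telaglenestat culture replicate 2. SLC1A5 gained a call in Control tumors against Control cultures without Telaglenestat tumor replicate 2 (0.046), Control culture replicate 2 (0.015) or Telaglenestat culture replicate 1 (0.023), 2 (0.0046) or 3 (0.043). In the combination against Control tumors SLC7A1 gained one without Palbociclib tumor replicate 2 (0.044) and SLC1A4 without replicate 4 (0.046), and against Telaglenestat tumors SLC1A3 did without Palbociclib tumor replicate 2 (0.037). Of 80 mean levels, 7 moved by more than the SD with unscaled library totals and 0 with DESeq2's size factors. SLC6A15 is limited by depth.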
